A study of Mus musculus with 2 samples.

Results

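Hydrogen peroxide is made at the surface of the intestinal epithelium by NADPH oxidases and is removed inside the cells by catalase and the glutathione peroxidases. The 10 genes described here were chosen by name to cover both sides of this balance. They are the dual oxidase Duox2 and its maturation factor Duoxa2, the oxidase Nox1 and its partners Noxo1, Noxa1 and Cyba, and the removal enzymes Gpx1, Gpx2, Cat and Sod1. Of the 10 genes, 9 are among the 19294 genes of the count table used here, and Nox1 was not analysed here. The transcripts come from mRNA-seq of mouse intestinal organoids (mIOs) grown from jejunal crypts of Lgr5-EGFP-IRES-creERT2 mice, whose Lgr5 locus drives EGFP and a tamoxifen-inducible Cre. Both cultures were kept in Matrigel with EGF, Noggin and R-spondin. There was 1 untreated control culture and 1 culture kept with dextran sulfate sodium (DSS) for 4 days. DSS is a polysaccharide that is toxic to the intestinal epithelium and is used to model colitis. The DSS concentration of the sequenced culture and the age of the animals are not given in the sources used here.

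DUOX2 sits in the apical membrane and releases hydrogen peroxide towards the lumen. It leaves the endoplasmic reticulum only when bound to its maturation factor DUOXA2. NOX1 makes superoxide and works as a complex with the membrane subunit p22-phox (Cyba), the organizer NOXO1, the activator NOXA1 and the GTPase RAC1. Superoxide is turned into hydrogen peroxide by the superoxide dismutase SOD1 in the cytosol, and the peroxide is then broken down by catalase, mainly in peroxisomes, or reduced with glutathione by GPX1 and GPX2. GPX1 is found in nearly all cells, whereas GPX2 is the glutathione peroxidase typical of the gastrointestinal epithelium, and in the intestine it is best known from the crypts. The glutathione peroxidases GPX1 to GPX4 carry selenocysteine in the active site, which is encoded by the codon TGA.

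Sequences of the genes with the largest differences are given first. Duox2 and Duoxa2 lie next to each other on chromosome 2 and point away from each other, so their start sites can be seen side by side. In the RefSeq promoter table (GRCm38.p6), the start site of Duoxa2 lies 673 bases from that of Duox2. The windows hold 250 bases before and 50 bases from the start site on, on the strand of the gene. The Duox2 window is chr2:122298178-122298477 on the minus strand and the Duoxa2 window is chr2:122298650-122298949 on the plus strand. Capitals mark a TATA box, searched as the letters TATAAA, which the Duoxa2 window holds from base -30 to base -25 relative to the start site.
Duox2: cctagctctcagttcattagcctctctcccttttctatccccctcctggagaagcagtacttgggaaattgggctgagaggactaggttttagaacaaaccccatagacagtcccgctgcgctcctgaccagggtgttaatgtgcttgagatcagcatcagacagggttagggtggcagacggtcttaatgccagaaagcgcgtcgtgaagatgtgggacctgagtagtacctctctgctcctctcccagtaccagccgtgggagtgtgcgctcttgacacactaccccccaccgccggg
Duoxa2: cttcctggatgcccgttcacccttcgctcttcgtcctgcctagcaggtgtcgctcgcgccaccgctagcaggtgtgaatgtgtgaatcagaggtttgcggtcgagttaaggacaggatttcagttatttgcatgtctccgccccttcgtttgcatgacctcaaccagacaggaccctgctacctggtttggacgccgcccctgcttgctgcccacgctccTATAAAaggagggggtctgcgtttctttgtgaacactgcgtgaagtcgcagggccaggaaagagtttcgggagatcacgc

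The windows of Gpx1, chr9:108338830-108339129 on the plus strand, and of Gpx2, chr12:76795505-76795804 on the minus strand, are shown because these enzymes catalyze the same reaction and had different ratios. Capitals mark matches to a loose form of the NF-κB site, GGG and CC with any 5 bases between them, which the Gpx1 window holds on the opposite strand and the Gpx2 window does not hold.
Gpx1: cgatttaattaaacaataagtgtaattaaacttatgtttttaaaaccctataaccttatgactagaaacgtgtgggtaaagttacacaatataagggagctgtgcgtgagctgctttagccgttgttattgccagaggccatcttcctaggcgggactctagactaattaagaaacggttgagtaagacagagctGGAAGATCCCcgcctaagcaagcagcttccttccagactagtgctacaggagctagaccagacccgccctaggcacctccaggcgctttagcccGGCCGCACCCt
Gpx2: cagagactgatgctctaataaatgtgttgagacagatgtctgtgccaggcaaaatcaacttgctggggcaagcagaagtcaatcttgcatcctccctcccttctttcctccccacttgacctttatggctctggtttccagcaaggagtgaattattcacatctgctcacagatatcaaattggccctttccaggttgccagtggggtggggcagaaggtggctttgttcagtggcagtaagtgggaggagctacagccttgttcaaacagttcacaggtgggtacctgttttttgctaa

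The windows were searched on both strands for this NF-κB form, the antioxidant response element TGACNNNGC, the STAT letters TTCNNNGAA, the TCF/LEF letters CTTTGAT and TATAAA. Duox2 and Gpx2 held none of these, and Duoxa2 held only TATAAA. Besides Gpx1, the windows of Nox1, Noxo1, Noxa1, Cyba, Cat and Sod1 held the NF-κB form. Of all 32851 windows in the table, 50.8% held the NF-κB form, 12.4% TGACNNNGC, 8.3% TTCNNNGAA, 3.73% CTTTGAT and 13.6% TATAAA. Among the 10 genes, the Sod1 window also held TATAAA and was the only one with TGACNNNGC. These matches describe the letters of these windows only.

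The selenocysteine codon is shown for the 4 glutathione peroxidases in the count table, with 15 bases on either side, from GENCODE transcripts on GRCm38. Capitals mark the codon, which lies in exon 1 of Gpx1 at chr9:108339451-108339453, in exon 1 of Gpx2 at chr12:76795256-76795258, in exon 2 of Gpx3 at chr11:54907256-54907258 and in exon 3 of Gpx4 at chr10:80054737-80054739.
Gpx1: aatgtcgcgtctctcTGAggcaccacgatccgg
Gpx2: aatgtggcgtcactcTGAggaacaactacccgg
Gpx3: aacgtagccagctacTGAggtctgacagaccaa
Gpx4: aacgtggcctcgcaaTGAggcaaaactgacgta
Gpx1 and Gpx2 shared 27 of these 33 bases, whereas Gpx1 shared 16 with Gpx3 and 19 with Gpx4.

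Depth was 65493032 counts for control mIOs and 59746968 for treated mIOs. After TMM scaling (a method that balances the libraries over most genes), levels are given per 1000000 scaled counts (CPM). The log2 ratio of a gene sets its scaled DSS count over its scaled control count, and its 95% interval is the exact Clopper-Pearson one from the 2 counts. With 1 library per condition there is no replicate check, no test was made, and all intervals cover counting error only. Over the 17235 genes that reached 10 counts in either library, hereafter the genes tested, the median log2 ratio was -0.06. A log2 ratio of at least 1 was seen for 19.3% of them and one of at most -1 for 20.2%. The libraries are labelled as intestinal stem cells, and all 9 epithelial markers were counted, with the cell adhesion gene Epcam at 941 CPM in control mIOs and 960 CPM after DSS. Of these markers, 3 were at 1 or more (Krt20 at 3.99, Vil1 at 1.25 and Krt19 at 1.15), 1 was at -1 or less (Cdx2 at -1.35) and 5 lay between. Markers of mature cells were also present. The 9 enterocyte markers summed to 3141 CPM in the control library, against 966 CPM for the 6 markers of crypt base stem cells.

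Duox2 and Duoxa2 were the genes of the set with the highest ratios. Duox2 had 376 counts (5.25 CPM) in control mIOs and 3548 counts (64.9 CPM) after DSS. Its log2 ratio was 3.63, with an interval from 3.47 to 3.78, a 12.4-fold higher level, and 98.3% of the genes tested had a lower ratio. In bulk RNA, a change in the number of cells that express a gene and a change in its RNA per cell cannot be told apart. Duoxa2 had 68 counts (0.950 CPM) in control mIOs and 479 counts (8.76 CPM) after DSS, and the log2 ratio was 3.20 (interval 2.84 to 3.59). Oxidase and maturation factor were thus both higher in the DSS library, by 9.22-fold for Duoxa2. The log2 ratio of Duoxa2 minus that of Duox2 was -0.42, with an exact conditional interval from -0.83 to -0.0020, which does not depend on the scaling of the libraries. Levels of different genes were compared per kilobase of the longest protein-coding transcript. On that scale, Duox2 was at 0.860 CPM per kilobase in control mIOs and 10.6 after DSS, and Duoxa2 at 0.597 and 5.50. The level of Duoxa2 was 0.694 times that of Duox2 in the control library and 0.518 times in the DSS library. The 3' end of Duoxa2 overlaps the gene Duoxa1 on the opposite strand by 695 bases. Use of strand in the counting is not given in the sources used here, so reads from the overlap cannot be assigned with certainty. Duox1 and Duoxa1, the other pair of the locus, were not analysed here.

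The NOX1 partners Noxo1 and Cyba showed much smaller differences, whereas Noxa1 rested on few counts and had a wide interval. Noxo1, the organizer subunit, had 956 counts (13.4 CPM) in control mIOs and 962 counts (17.6 CPM) after DSS, and the log2 ratio was 0.40 (interval 0.27 to 0.53). Cyba, the membrane subunit p22-phox, had 2218 counts (31.0 CPM) and 1832 counts (33.5 CPM), and the log2 ratio was 0.11 (interval 0.02 to 0.20). The sign of the Cyba ratio depended on the scaling, since it was -0.14 with total counts only. Noxo1 lay 0.28 above Cyba, with an interval of the difference from 0.13 to 0.44, and Duox2 lay 3.23 above Noxo1, with an interval from 3.03 to 3.43. Noxa1, the activator subunit, had only 6 counts in control mIOs and 13 after DSS, and it passed the minimum of 10 counts only through the DSS library. Its log2 ratio was 1.50 (interval 0.0083 to 3.19), and its difference from Cyba, 1.39, had an interval from -0.11 to 3.08 that included 0. Per kilobase, Cyba was 6.98 times as high as Noxo1 in the control and 5.73 times in the DSS library. Noxa1 was the lowest of the 9 genes in both libraries, at 0.0518 and 0.147 CPM per kilobase. Noxo1 overlaps Tbl3 on the opposite strand by 2581 bases, and Tbl3 was at a log2 ratio of -0.61. Noxa1 overlaps Entpd8 on the opposite strand by 50 bases, and Entpd8, with 1092 and 3532 counts, was at 2.08.

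**Figure D1:**
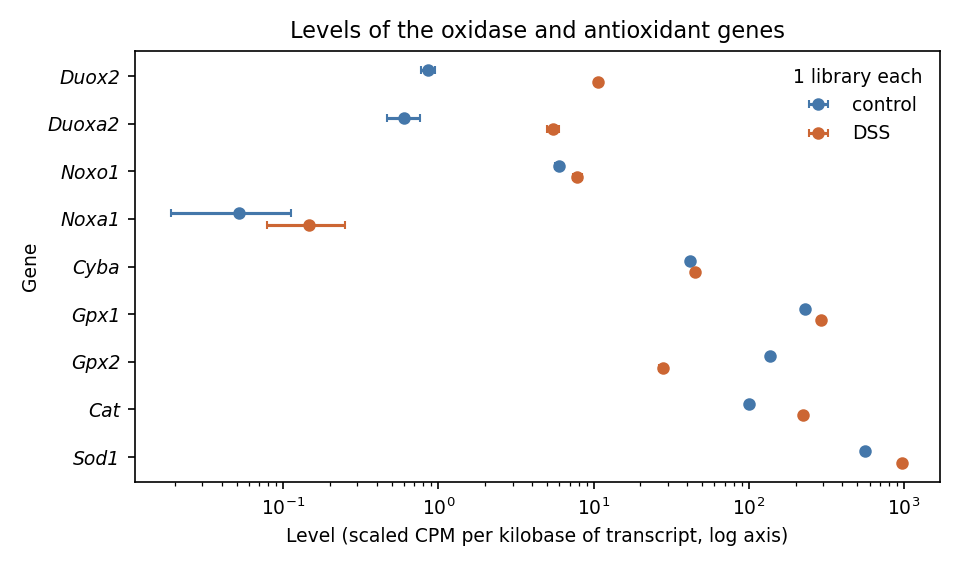
Level of each gene in scaled CPM per kilobase of transcript on a log axis, for the control library (blue) and the DSS library (orange), with exact Poisson 95% intervals of the counts as bars. Duox2 and Duoxa2 moved from below 1 to 10.6 and 5.50, Gpx2 moved the other way from 137 to 27.8, and the remaining genes lay close to their control level or above it.

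Among the removal enzymes, Gpx2 was far lower in the DSS library and Gpx1 was not. Gpx2 had 10453 counts (146 CPM) in control mIOs and 1622 counts (29.7 CPM) after DSS. Its log2 ratio was -2.30, with an interval from -2.38 to -2.22, a 4.92-fold lower level, and only 4.70% of the genes tested had a lower ratio. Gpx1 had 17755 counts (248 CPM) in control mIOs and 17194 counts (314 CPM) after DSS, and the log2 ratio was 0.34 (interval 0.31 to 0.37). The difference between them, Gpx2 minus Gpx1, was -2.64 on the log2 scale, with an interval from -2.72 to -2.56. Gpx2 made up 37.1% of the counts of the pair in the control library (Clopper-Pearson 95% interval from 36.5% to 37.6%) and 8.62% in the DSS library (8.22% to 9.03%). The Gpx2 gene lies within Fntb, a gene on the opposite strand, which went from 1420 to 405 counts, a log2 ratio of -1.42. Transcripts of crypt base stem cells were also lower in the DSS library, where all 6 markers were at a log2 ratio of -1 or less and their sum was 159 CPM against 966 CPM in the control. Their part in the Gpx2 value was not tested.

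Cat and Sod1 were both higher in the DSS library. Cat, which encodes catalase, had 18721 counts (262 CPM) in control mIOs and 31973 counts (585 CPM) after DSS, and the log2 ratio was 1.16 (interval 1.13 to 1.19). With total counts only, the value for Cat was 0.90, below the line of 1. Sod1, the cytosolic superoxide dismutase, had 25768 counts (360 CPM) and 34215 counts (626 CPM), and the log2 ratio was 0.80 (interval 0.77 to 0.82). The end of Sod1 overlaps Scaf4 on the opposite strand by 650 bases, and Scaf4 was at -0.38. Relative to Gpx1, Cat lay 0.82 higher on the log2 scale (interval from 0.78 to 0.86) and Sod1 0.46 higher (interval from 0.42 to 0.49). Enterocyte markers, all 9 at 1 or more, summed to 3141 CPM in control mIOs and 28364 CPM after DSS, and goblet cell markers, all 7 at 1 or more, to 756 and 11378 CPM. Their part in the ratios of Cat, Sod1 and Duox2 was not tested.

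**Figure D2:**
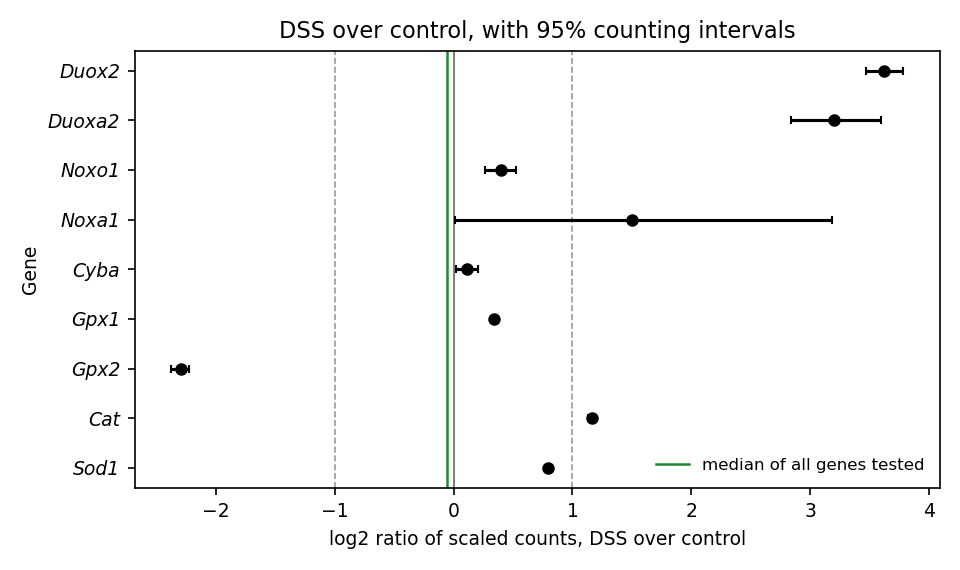
log2 ratio of scaled counts, DSS over control, for each of the 9 genes, with exact 95% counting intervals as bars. Dashed lines mark -1 and 1, and the green line marks the median of all genes tested, -0.06. Duox2 and Duoxa2 lie beyond 3, Gpx2 lies at -2.30, and the NOX1 partners Noxo1 and Cyba lie between 0 and 1.

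Of the 9 genes, 4 were at a log2 ratio of 1 or above (Duox2, Duoxa2, Noxa1 and Cat), 1 at -1 or below (Gpx2) and 4 lay between. Across all genes tested, 19.3% and 20.2% were past these lines. At 2 or above there were 2 of the 9 (Duox2 and Duoxa2), against 7.87% of all genes tested, and at -2 or below 1 (Gpx2), against 6.54%. Without Noxa1, whose 13 counts in the DSS library alone let it enter, 3 genes were at 1 or more. The genes were chosen by name with earlier results of these data known, so these counts are a description.

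Per kilobase, the 4 removal enzymes stood above Duox2 in both libraries, and Cyba stood above Gpx2 after DSS. In the control library the order was Sod1 at 562 CPM per kilobase, Gpx1 at 231, Gpx2 at 137, Cat at 100.1, Cyba at 41.7, Noxo1 at 5.97, Duox2, Duoxa2 and Noxa1. In the DSS library, Sod1 at 976, Gpx1 at 293, Cat at 224 and Cyba at 45.0 came before Gpx2 at 27.8, and Duox2 stood above Noxo1 at 7.86. No pair of neighbours in either order had overlapping counting intervals. The order in the control library rests on the transcript chosen, since Cat moved up when the median transcript length was used. Cat stood 116 times above Duox2 per kilobase in the control and 21.1 times in the DSS library. Transcript levels do not measure the activity of these enzymes.

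The other glutathione peroxidases in the table were higher in the DSS library. Gpx4, which reduces lipid peroxides in membranes, had 12466 counts (174 CPM) in control mIOs and 33476 counts (612 CPM) after DSS, and the log2 ratio was 1.81 (interval 1.78 to 1.84). Gpx3, the secreted form, had 82 counts (1.15 CPM) and 803 counts (14.7 CPM), and the log2 ratio was 3.68 (interval 3.35 to 4.03). The summed level of Gpx1 to Gpx4 was 544 CPM per kilobase in control mIOs and 946 after DSS. Per kilobase, the share of Gpx2 in this sum went from 25.2% to 2.94% and that of Gpx4 from 32.2% to 65.1%, while Gpx1 went from 42.5% to 31.0%. Gpx3 stayed the smallest of the 4, at 0.132% and 0.974%.

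**Figure D3:**
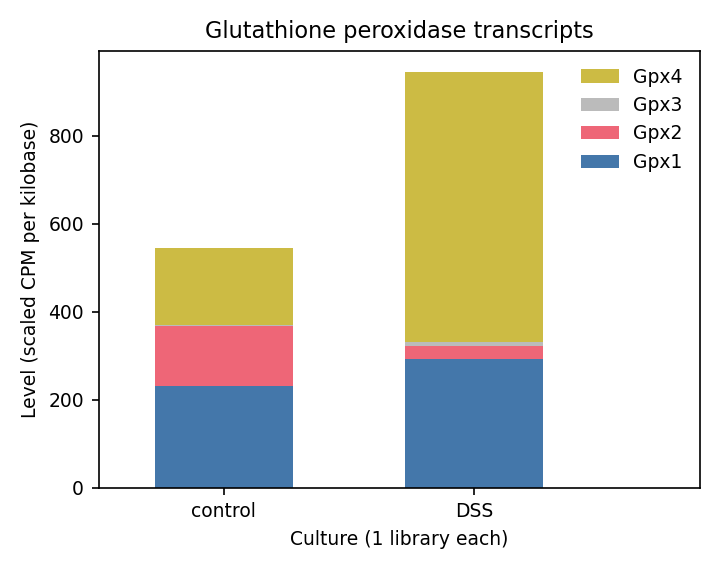
Stacked level of Gpx1, Gpx2, Gpx3 and Gpx4 in scaled CPM per kilobase of transcript, in the control and the DSS library (1 each). The sum was 544 in control mIOs and 946 after DSS, with Gpx2 the third largest part in the control and a thin band after DSS.

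Since these 4 enzymes are selenoproteins, the other genes with an annotated selenocysteine codon were listed as well. Of 24 such genes in GENCODE, 21 were in the table, with a median log2 ratio of 0.34. Ratios of at least 1 were found for 6 of these 21, against 19.3% of all genes tested. Ratios of at most -1 were found for 4, against 20.2%. Besides Gpx2, the lower genes were Selenoh at -2.55, Selenon at -2.09 and Txnrd3 at -1.39. Selenop, the secreted selenium carrier, was at 1.82 and went from 379 to 1336 CPM. Of 9 genes of selenoprotein synthesis and selenium supply, 1 was at 1 or more (Selenop) and 7 lay between the lines. The remaining 1, the selenoprotein P receptor gene Lrp8, was at -1.26. The list median was -0.12, and the shares of all genes tested past the lines were again 19.3% and 20.2%.

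Glutathione itself is made from cysteine by glutamate-cysteine ligase and glutathione synthetase and is recycled by glutathione reductase. All 9 genes of this list had ratios above 0, as did 8272 of the 17235 genes tested. At 1 or more there were 3, against 19.3% of all genes tested. The list median was 0.74 against -0.06 over all genes. Total counts in place of TMM factors shift every ratio by -0.256. This takes Gsr and Glrx2 (0.18) below 0 and brings the list median to 0.48. Ggt1, which breaks down extracellular glutathione, was at 3.53, Gclc, the catalytic subunit of glutamate-cysteine ligase, at 2.74, and the cystine carrier Slc7a11 at 2.10. The reductase Gsr, which supplies reduced glutathione to the peroxidases, was at 0.11, with 295 CPM in control mIOs and 318 CPM after DSS.

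Peroxiredoxins remove hydrogen peroxide with electrons from thioredoxin. In this list of 13 genes, 3 were at 1 or more, 2 at -1 or less and 8 between, and the median was 0.02. Over all genes tested, the shares past these lines were 19.3% and 20.2%. Its members differed in direction. Prdx4, the peroxiredoxin of the endoplasmic reticulum, went from 1822 to 177 counts, with a log2 ratio of -2.98 (interval -3.21 to -2.75). Prdx5 was at 1.44, Srxn1, which repairs overoxidized peroxiredoxins, at 1.76 and Txn1 at 1.21. Prdx1 at 0.17, Prdx6 at 0.32, Prdx2 at -0.29 and Prdx3, the mitochondrial form, at -0.57 lay closer to 0, as did the thioredoxin reductase Txnrd1 at 0.44.

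Of the other superoxide dismutases, Sod2, the mitochondrial enzyme, was at -0.27, with 96.6 CPM in control mIOs and 80.2 CPM after DSS. It lay -1.07 from Sod1 on the log2 scale, with an interval from -1.13 to -1.01. Ccs, the copper chaperone of SOD1, was at -0.02, with an interval from -0.10 to 0.07, and the extracellular Sod3 was at 0.66. None of these 3 genes was past 1 or -1, and their median was -0.02.

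**Figure D4:**
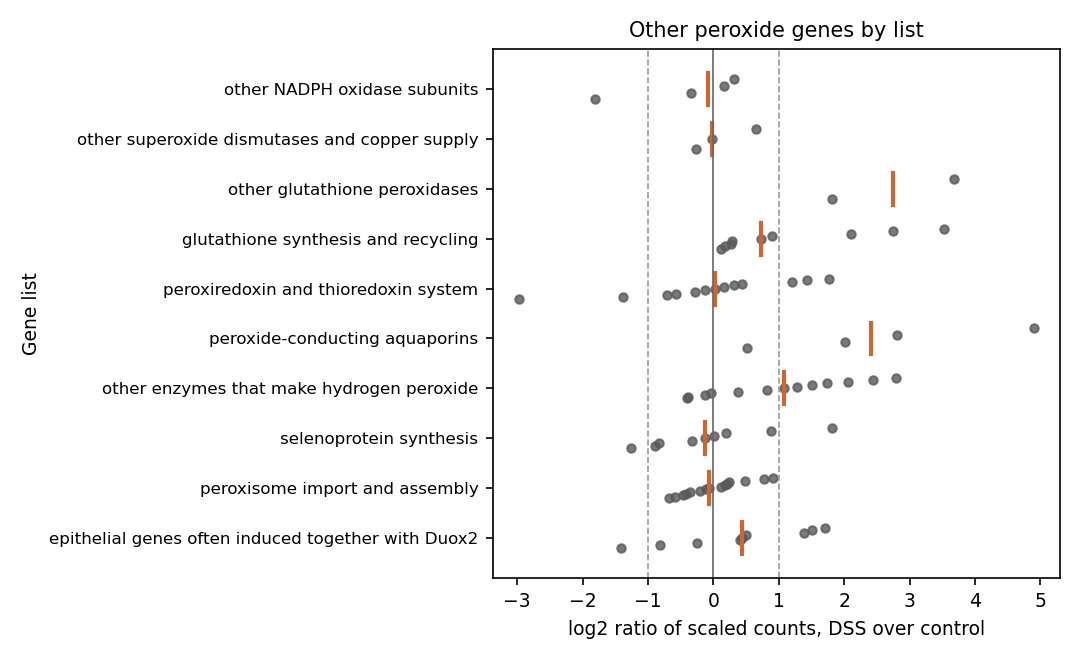
log2 ratio of scaled counts, DSS over control, of the genes in the lists of other peroxide genes that reached 10 counts in either library. Each point is a gene, orange bars are list medians, and dashed lines mark -1 and 1. The medians of the 4 aquaporins (2.41, or 2.01 without Aqp8) and of the 2 other glutathione peroxidases (2.75) lie to the right but rest on few genes. The median of the 13 other peroxide-forming enzymes (1.08) also lies to the right. The 15 genes of the peroxisome assembly list (median -0.07) stay between the lines.

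Other oxidases that form hydrogen peroxide were also examined. Of 13 listed genes, 7 were at 1 or more and none at -1 or less, with a median of 1.08. The shares of all genes tested past these lines were 19.3% and 20.2%. Xdh, xanthine dehydrogenase, was at 2.79, the mitochondrial monoamine oxidase Maoa at 2.06 and Ero1b, an oxidase of the endoplasmic reticulum, at 1.74. By contrast, the 15 genes of peroxisome import and assembly had a median of -0.07 and none was past 1 or -1. Their highest ratio was 0.92, for Pex11a, and the lowest was -0.68, for Pex10.

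Hydrogen peroxide crosses membranes through some aquaporins. Aqp3 went from 45 counts (0.629 CPM) to 1027 counts (18.8 CPM), with a log2 ratio of 4.90 (interval 4.47 to 5.37). Aqp11 was at 0.52. Aqp9 had 12 and 37 counts, and Aqp8 had 3 and 16 counts and entered only through the DSS library. The median of the 4 aquaporins was 2.41, and 2.05 with a prior count of 2. Over those with at least 10 counts in both libraries, which leaves out Aqp8, it was 2.01. That value is the ratio of Aqp9 itself, whose interval ran from 1.04 to 3.09, so it also rests on few counts.

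Few genes of the NADPH oxidases of other cells could be described. Of 12 other subunit genes, 5 were listed and 7 were not analysed here, Cybb, the catalytic subunit of the phagocyte oxidase, and Nox4 among them. Rac1, the GTPase of the NOX1 complex, was at 0.17, with 263 CPM in control mIOs and 296 CPM after DSS. The median log2 ratio of the 4 listed subunit genes that reached 10 counts in either library was -0.08. Among 12 phagocyte markers, 5 were listed, and they summed to 12.9 CPM in control mIOs and 23.5 CPM after DSS. Ptprc, Adgre1, S100a8, S100a9 and Mpo, which define leukocytes, were not analysed here. The same holds for Lpo, Epx and Pxdn, other peroxidases that use hydrogen peroxide.

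Duox2 is often induced together with other epithelial defense genes. Of 14 genes on that list, 9 were listed, with 3 at 1 or more, 1 at -1 or less and a median of 0.44. Among all genes tested, 19.3% and 20.2% were past these lines. Nos2, the inducible nitric oxide synthase, was at 1.71, with 352 counts in control mIOs and 877 after DSS. Nfkbiz, an NF-κB cofactor, was at 1.51 and the interleukin-22 receptor subunit Il22ra1 at 1.38, while the antimicrobial lectin Reg3b was at -1.41. Saa1, Saa2, Saa3, Lcn2 and Cxcl5 were not analysed here.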

How the data were processed

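Libraries were stranded poly(A) mRNA libraries (TruSeq Stranded mRNA) of 1 control and 1 DSS-treated mIO culture. Raw read counts by NCBI gene identifier were deposited by the authors. The 2 single-sample files carry FPKM in their names, but their values are these counts. The submitters' processing notes name HISAT2 and StringTie. Versions, genome build, and the treatment of strand and of reads shared with paralogs or pseudogenes (such as those of Gpx1 and Sod1) are not given in the sources used here. No listed gene has a count of 0, so a gene that is not listed has no ratio here.

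Counts (65493032 and 59746968 in total) were scaled by TMM factors of 1.09 for control and 0.915 for DSS (edgeR 4.0.16, R 4.3.3). Exact 95% intervals (Clopper-Pearson, Poisson, conditional odds ratio) were computed with scipy 1.17.1 in Python 3.11.15. Only the Clopper-Pearson interval of the log2 ratio was run on simulated counts, which were drawn with counting error alone. All these intervals cover counting error only. A log2 ratio of 1 or -1 served as a rule of size for genes that reached 10 counts in either library. Lengths were those of protein-coding GENCODE vM21 transcripts, found by symbol for all 9 genes, and promoter windows were from RefSeq (GRCm38.p6), found for all 10.

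The members, 11 pathway lists, 6 cell type lists and rules were chosen with earlier results of these data known. Named genes were the members, fixed partner genes, up to 4 genes per pathway list with the largest absolute ratio and 50 counts in either library, and the 3 genes nearest to Duox2, and some of them are not reported here. Comparisons planned against Nox1 could not be made, and other pairs were used. The selenoprotein list, the TATA box, and overlapping and neighbouring genes were chosen after seeing the data. Alternatives were total counts, DESeq2 1.42.0 size factors, upper quartile factors, a prior count (2), thinning, other count minimums, a line at 2, median transcript length and, chosen after seeing the data, centering on the overall median and leaving out Noxa1.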

Additional observations from a re-analysis of the deposited data

How the results depend on the processing

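Total counts in place of TMM factors shifted every log2 ratio by -0.256. Among the 9 genes, this turned the sign of Cyba, to -0.14, and brought Cat to 0.90, under the line of 1. No other of the 54 combinations of these 9 genes with a scaling, prior count or thinning setting changed a sign or a side of the line. The other peroxide lists held 81 genes that reached 10 counts in either library. With total counts, 8 of these 81 were at -1 or less, in place of 5. With TMM factors, 20.2% of all genes tested were at -1 or less and 19.3% at 1 or more. With a line of 2, 2 of the 9 genes (Duox2 and Duoxa2) were past it upward and Gpx2 downward. Of the 81 list genes, 10 were at 2 or more in place of 22 at 1 or more, against 7.87% of all genes tested at 2 or more. At -2 or less there was 1 list gene, against 6.54% of all genes tested. Per median transcript length, the share of Gpx2 in Gpx1 plus Gpx2 was 30.3% in control mIOs and 6.51% after DSS, in place of 37.2% and 8.66% per longest transcript. No paired analysis was possible because each condition has 1 library, and leaving out a library leaves no comparison. Depth limits Noxa1, Aqp8 and Aqp9, which rest on few counts.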

Other observations

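The genes beside Duox2 and Duoxa2 on chromosome 2 did not share one direction. On the side of Duox2, Sord was at a log2 ratio of 0.39, with 16958 counts in control mIOs and 16920 after DSS, Trim69, with 6 and 20 counts, was at 2.13 and B2m was at 1.33. Beyond Duoxa2, Duoxa1 and Duox1 were not analysed here, Shf was at -0.99, the nucleoside carrier Slc28a2 at 2.14, Gm14085 at 1.88 (69 and 194 counts), Gatm at -2.48 and Spata5l1 at -1.23. The neighbours were taken in the order of RefSeq genes, and those between or beyond the named ones that were not analysed here are left out.

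The genes nearest to Duox2 in the log2 CPM of the 2 libraries, taken from genes that reached 100 counts in either library, were Ifit1bl2, Il18 and 9530053A07Rik, at distances of 0.0278, 0.211 and 0.213. Ifit1bl2 had 370 and 3586 counts, Il18 had 407 and 3137 counts, and 9530053A07Rik had 331 and 3293 counts. The likeness rests on 2 libraries.

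Of 8 markers of colon epithelium, where DUOX2 and NOX1 are abundant, 5 were in the table. Car4 had 4 counts in control mIOs and 42 after DSS, and Slc26a3 went from 42.8 to 114 CPM. Car1 and Hoxb13 were not analysed here.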
